A study of Homo sapiens with 6 samples.

Results

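The contractile actin genes described here are 10 genes, TAGLN, TAGLN2, ACTA2, CNN1, CNN2, MYL9, TPM1, TPM2, CALD1 and MYLK, taken by gene symbol from a table of 57736 genes. All 10 were in the table, and 9 of them were among the 15421 genes that passed the filter on low counts. CNN1 did not pass it. The genes were measured in AALE cells, an established line of human bronchial basal epithelial cells transformed with SV40 and telomerase (hTERT). Both groups therefore carry those introduced genes. The cells of one group were transduced with a lentiviral vector that overexpresses NRG1, the gene of neuregulin, a growth factor that binds receptors of the ERBB family. The cells of the other group received a lentiviral control vector. In both groups stable pools were selected and kept in small airway growth medium (SAGM), and no further agent is named. There were 3 NRG1 libraries and 3 control libraries of polyA RNA. Nothing in the labels tells whether a group's libraries came from different cultures, so every p-value rests on the spread among libraries, and that spread may be technical. A selected pool that makes its own growth factor in one medium is a limited model of airway epithelium, and no airway tissue was measured.

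Contractile force in cells comes from myosin II pulling on actin filaments. Myosin II is switched on when its regulatory light chain, of which MYL9 encodes one form, is phosphorylated by kinases such as the product of MYLK. Tropomyosins (TPM1, TPM2) and caldesmon (CALD1) lie along the actin filament and regulate access of myosin, while transgelins (TAGLN, TAGLN2) and calponins (CNN1, CNN2) bind and bundle actin. Smooth muscle makes much ACTA2, TAGLN and CNN1. Many of these genes are known targets of serum response factor, SRF, which binds a DNA element called the CArG box, and of its coactivators of the MRTF family. Basal epithelial cells use actin bundles for adhesion and migration.

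NRG1 reached 6647, 3854 and 3781 CPM in the NRG1 libraries, against 11.6, 7.87 and 12.3 CPM in the control libraries (CPM, counts scaled to library size with TMM factors, the level used throughout). It was the single gene of 15421 past the threshold of an adjusted p under 0.05 (edgeR quasi-likelihood test, Benjamini-Hochberg). Total expected counts ran from 8612234 to 10609067 in NRG1 libraries and from 9549284 to 13207620 in control libraries. Control 3 stood apart on the first principal component, which held 44.5% of the variance, and NRG1 1 on the second, with 27.3%. NRG1 2 and NRG1 3 were the closest pair (Spearman correlation across genes 0.994), yet their counts differed by more than sampling noise (chi-square per degree of freedom 2.65), and they were kept as separate libraries. Results are therefore also given without control 3 and NRG1 1, a comparison of NRG1 2 and 3 with control 1 and 2. Its p-values are too small by an unknown amount, because the libraries were left out for their distance from the rest. The NRG1 libraries kept are also the closest pair, so the spread within that group is small and may be technical. All 10 airway basal markers examined (KRT5, KRT14, KRT15, KRT17, TP63, ITGA6, ITGB4, CDH1, EPCAM and LAMB3) were expressed, with summed levels of 6764 to 7960 CPM in NRG1 libraries and 9488 to 13435 CPM in control libraries.

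No member passed the edgeR test over all genes, where 0.00648% of the tested genes did. At an unadjusted p under 0.05 there were 3 members, with lower levels of TAGLN and MYL9 and a higher level of MYLK in NRG1 libraries, against 11.8% of all tested genes. The groups did not overlap for these same 3 members, where 19.6% of all tested genes showed no overlap. DESeq2, the other count test run, called the same 3 members in the same directions, where it called 1.36% of all tested genes. When control 3 and NRG1 1 were left out, edgeR called these 3 and also CNN2 as lower, where 9.82% of all tested genes were called. The median log2 fold change, NRG1 minus control, was -0.09 over the 9 tested members and 0.00034 over all tested genes. The members were chosen with results of these data known, so these counts describe them and set them apart from no other genes.

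**Figure D1:**
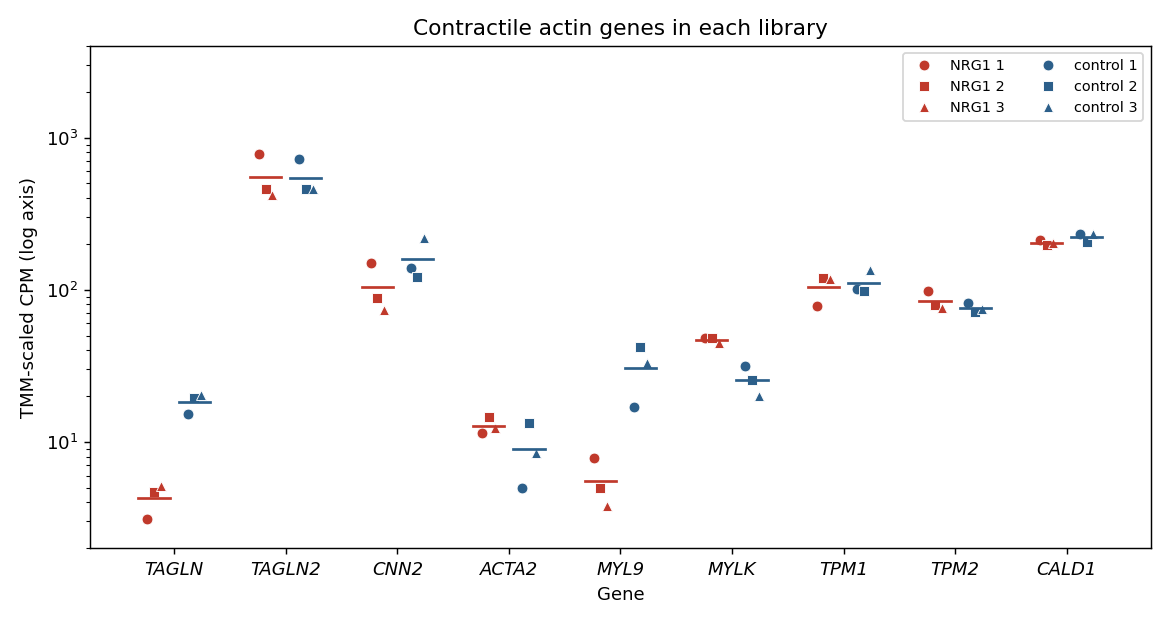
Level of the 9 tested members in each library, in TMM-scaled CPM on a log axis; red marks are NRG1 libraries, blue marks control libraries, and bars are group means. For TAGLN and MYL9 all 3 NRG1 libraries lie below the controls, for MYLK all 3 lie above them, and the groups overlap for the other 6 genes.

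TAGLN (ENSG00000149591, chromosome 11), transgelin or SM22-alpha, encodes an actin-binding protein abundant in smooth muscle. It had 3.09, 4.67 and 5.10 CPM in NRG1 libraries 1 to 3, against 15.3, 19.5 and 20.4 CPM in control libraries 1 to 3. The highest NRG1 library lay far below the lowest control library, and the libraries of each group lay close together. The means were 4.29 ± 1.06 CPM in NRG1 libraries and 18.4 ± 2.70 CPM in control libraries (SD, n = 3 each), 4.29-fold lower with NRG1. The fitted log2 fold change was -2.09 (SE 0.29, 95% interval -2.75 to -1.42, adjusted p = 0.113 by edgeR), the rank 11 of 15421 genes by p, and 0.473% of the tested genes had a fold change as low or lower. By DESeq2 the adjusted p was 9.96e-08 for the same fold change. Without control 3 and NRG1 1 the log2 fold change was -1.83 (SE 0.22, adjusted p = 0.00558 by edgeR). The NRG1 values rested on expected counts of 24.9, 49.6 and 46.9, against 190 to 264 in control libraries, so counting error adds to their spread. In RNA from a pool, fewer cells that express a gene and less RNA per cell cannot be told apart.

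TAGLN2 (ENSG00000158710, chromosome 1), a transgelin found in many non-muscle cells, was the most abundant member. It had 777, 458 and 422 CPM in NRG1 libraries and 719, 458 and 461 CPM in control libraries. Library 1 was the highest of its group on both sides and the groups overlapped. The means were 552 ± 196 CPM in NRG1 libraries and 546 ± 150 CPM in control libraries (SD, n = 3 each). The log2 fold change was 0.02 (SE 0.28, 95% interval -0.62 to 0.66, adjusted p = 0.985 by edgeR). It was -0.42 (SE 0.20, adjusted p = 0.226) without control 3 and NRG1 1, so even the sign rested on those libraries.

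Set against its paralog within each library, which needs no scaling between libraries, TAGLN gave 0.396, 1.01 and 1.21 counts per 100 counts of TAGLN2 in NRG1 libraries. In control libraries there were 2.13, 4.26 and 4.42 counts of TAGLN per 100 of TAGLN2. Every NRG1 library lay below every control library on this measure. The log2 ratio averaged -6.99 ± 0.86 in NRG1 libraries and -4.87 ± 0.59 in control libraries (SD, n = 3 each), a difference of -2.12. By a two-sided exact permutation test p was 0.1, the floor of a design with 3 libraries a side, and 0.2 after Benjamini-Hochberg adjustment over the 2 ratios computed. Without control 3 and NRG1 1 the difference was -1.45.

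**Figure D2:**
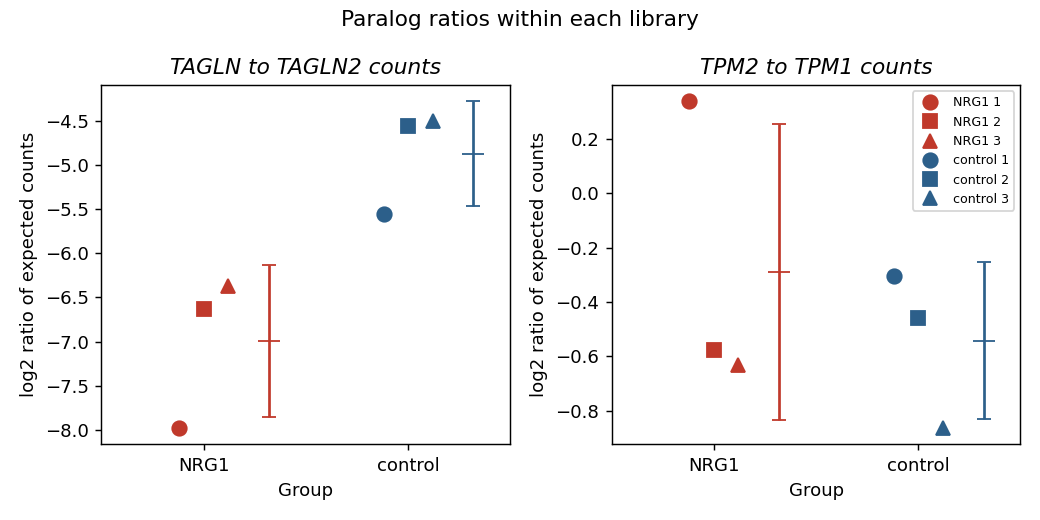
Log2 ratio of expected counts within each library, TAGLN to TAGLN2 in the left panel and TPM2 to TPM1 in the right panel; marks are libraries, with NRG1 in red left of control in blue, and bars give the mean ± SD of 3. The groups separate for TAGLN to TAGLN2 and overlap for TPM2 to TPM1, where NRG1 1 stands above the other 5 libraries.

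The calponins were a nearly silent gene and a well expressed one. CNN1 (ENSG00000130176, chromosome 19), calponin of differentiated smooth muscle, had expected counts of 1, 0 and 1 in NRG1 libraries and 3, 1 and 3 in control libraries. Both groups lay at or under 3 counts per library, so no fold is given and a difference was not detectable at this depth. CNN2 (ENSG00000064666, chromosome 19), the calponin of non-muscle cells, had 150, 87.7 and 73.8 CPM in NRG1 libraries and 138, 120 and 220 CPM in control libraries. NRG1 1 lay above control 1 and 2, and the groups overlapped. The means were 104 ± 40.4 CPM in NRG1 libraries and 160 ± 53.1 CPM in control libraries (SD, n = 3 each), with a log2 fold change of -0.62 (SE 0.31, 95% interval -1.34 to 0.099, adjusted p = 0.460 by edgeR). With control 3 and NRG1 1 left out the log2 fold change was -0.68 (SE 0.13, adjusted p = 0.0206 by edgeR), and leaving out control 3 alone gave -0.33. The call on CNN2 thus rested on which libraries were compared.

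MYL9 (ENSG00000101335, chromosome 20) encodes the myosin regulatory light chain best known from smooth muscle and from stress fibres. It had 7.79, 4.95 and 3.80 CPM in NRG1 libraries, against 16.9, 42.0 and 33.2 CPM in control libraries. All NRG1 libraries were below all control libraries, and control 1 was the nearest to them. The means were 5.51 ± 2.05 CPM in NRG1 libraries and 30.7 ± 12.7 CPM in control libraries (SD, n = 3 each), 5.57-fold lower with NRG1. The log2 fold change was -2.49 (SE 0.41, 95% interval -3.43 to -1.54, adjusted p = 0.170 by edgeR), at rank 25 by p, and 0.208% of the tested genes were as low or lower. DESeq2 gave an adjusted p of 3.84e-06. Without control 3 and NRG1 1 the log2 fold change was -2.73 (SE 0.44, adjusted p = 0.0131 by edgeR).

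MYL9 shares its place on myosin II with MYL12A and MYL12B, the light chains found in most cells, and the shares of these 3 genes were computed after their values were seen. Per kilobase of the longest coding transcript, MYL9 made up 0.591, 0.507 and 0.380% of the 3 genes in NRG1 libraries and 1.37, 3.60 and 2.48% in control libraries. MYL9 was thus a small part of the regulatory light chain RNA in both groups, and the groups did not overlap. MYL12B held 64.7, 65.9 and 66.2% in NRG1 libraries and 61.3, 56.1 and 49.2% in control libraries, the rest being MYL12A. With all exons as the length the MYL9 share was 1.06, 0.907 and 0.681% in NRG1 libraries and 2.49, 6.53 and 4.72% in control libraries, again without overlap.

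MYLK (ENSG00000065534, chromosome 3) encodes a kinase that phosphorylates regulatory light chains. It had 48.0, 47.8 and 44.8 CPM in NRG1 libraries, against 31.6, 25.3 and 19.9 CPM in control libraries. The 3 NRG1 libraries lay close together and above every control library. The means were 46.9 ± 1.77 CPM in NRG1 libraries and 25.6 ± 5.84 CPM in control libraries (SD, n = 3 each), 1.83-fold higher with NRG1. The log2 fold change was 0.87 (SE 0.21, 95% interval 0.38 to 1.36, adjusted p = 0.301 by edgeR), at rank 166 by p, and 4.15% of the tested genes were as high or higher. DESeq2 gave an adjusted p of 0.0314, and edgeR without control 3 and NRG1 1 a log2 fold change of 0.70 (SE 0.15, adjusted p = 0.0276). The kinase gene and the gene of its substrate MYL9 therefore stood on opposite sides in these libraries, each without overlap between groups, against non-overlap in 9.36% of all tested genes with NRG1 above and 10.2% with NRG1 below. Counts per gene do not separate the kinase from telokin, a short product of the same gene that lacks the kinase.

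ACTA2 (ENSG00000107796, chromosome 10), smooth muscle alpha-actin, did not follow TAGLN. It had 11.4, 14.5 and 12.3 CPM in NRG1 libraries and 4.997, 13.3 and 8.42 CPM in control libraries. Control 1 was the lowest library, control 2 lay among the NRG1 libraries, and the groups overlapped. The means were 12.7 ± 1.60 CPM in NRG1 libraries and 8.91 ± 4.18 CPM in control libraries (SD, n = 3 each), with a log2 fold change of 0.53 (SE 0.36, 95% interval -0.30 to 1.36, adjusted p = 0.570 by edgeR). Its value was 0.58 without control 3 and NRG1 1 (adjusted p = 0.392). The TAGLN interval, which ended at -1.42, and the ACTA2 interval did not overlap, though the difference between the genes was not itself tested.

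None of the genes of filament-lining proteins reached an unadjusted p under 0.05. CALD1 (ENSG00000122786, chromosome 7), caldesmon, had 212, 197 and 201 CPM in NRG1 libraries and 233, 207 and 231 CPM in control libraries, with means of 204 ± 7.95 and 223 ± 14.6 CPM in that order (SD, n = 3 each). NRG1 1 lay above control 2, so the groups overlapped, and the log2 fold change was -0.13 (SE 0.13, 95% interval -0.44 to 0.17, adjusted p = 0.694 by edgeR). TPM2 (ENSG00000198467, chromosome 9), beta-tropomyosin, had 98.3, 79.8 and 76.0 CPM in NRG1 libraries and 81.4, 71.4 and 74.4 CPM in control libraries. Its log2 fold change was 0.16 (SE 0.16, 95% interval -0.22 to 0.54, adjusted p = 0.703 by edgeR), and only NRG1 1 exceeded control 1.

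TPM1 (ENSG00000140416, chromosome 15), alpha-tropomyosin, had 77.8, 119 and 118 CPM in NRG1 libraries and 101, 98.1 and 135 CPM in control libraries. NRG1 1 was the lowest and control 3 the highest of the 6, so the 2 libraries that stood apart set the range. The log2 fold change was -0.09 (SE 0.22, 95% interval -0.58 to 0.41, adjusted p = 0.892 by edgeR) and 0.25 without those libraries (adjusted p = 0.150). The log2 ratio of TPM2 to TPM1 was 0.34, -0.58 and -0.63 in NRG1 libraries and -0.30, -0.46 and -0.86 in control libraries. Its groups overlapped, and the difference of 0.25 had p = 0.7 by the two-sided exact permutation test, also 0.7 after adjustment. Leaving out those libraries gave a difference of -0.22, the opposite sign.

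**Figure D3:**
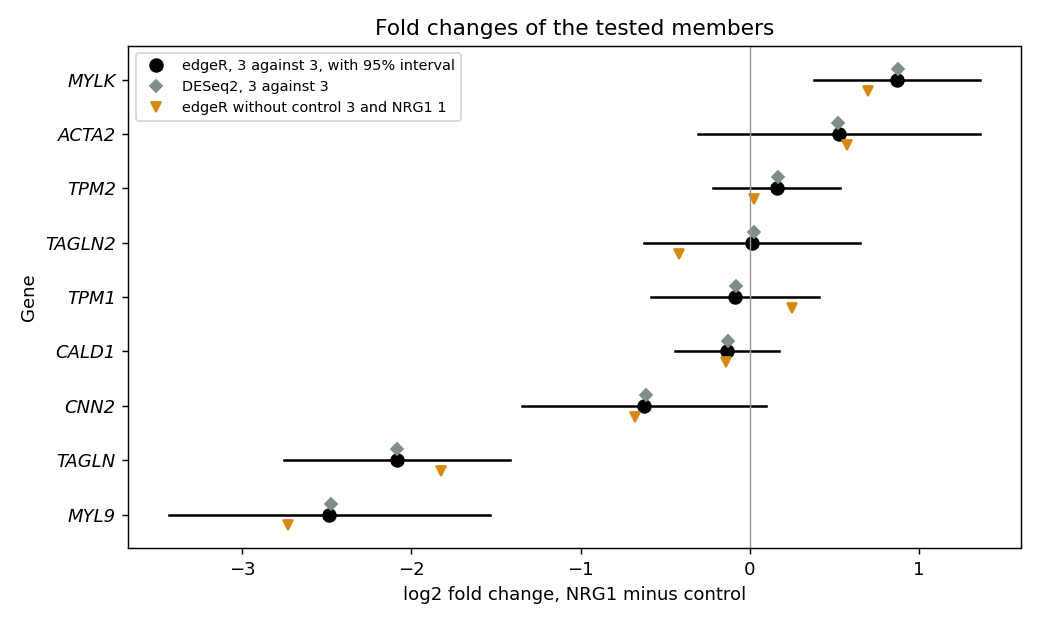
Log2 fold change, NRG1 minus control, of the 9 tested members from edgeR with its 95% interval (black), from DESeq2 (grey) and from edgeR without control 3 and NRG1 1 (orange). The intervals of MYLK, TAGLN and MYL9 lie clear of 0, and TAGLN2 and TPM1 change sign when those libraries are left out.

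Among the 4 tropomyosin genes, compared per kilobase of the longest coding transcript, TPM3 and TPM4 held the larger part. TPM2 made up 16.8, 18.2 and 17.0% of tropomyosin RNA in NRG1 libraries and 15.5, 16.1 and 13.1% in control libraries, and TPM4 held 32.4, 36.9 and 38.4% in NRG1 libraries and 40.0, 43.3 and 46.8% in control libraries. The TPM4 groups did not overlap, with NRG1 lower, and neither did those of TPM2, with NRG1 higher. Shares within a library depend on each other, so the TPM2 and TPM4 results are not independent. The CPM of TPM2 itself overlapped between groups. For levels, 19.6% of all tested genes showed no overlap. With all exons of a gene as its length, TPM2 shares were 20.0, 22.0 and 20.7% in NRG1 libraries and 18.9, 19.8 and 16.2% in control libraries, which again did not overlap, though NRG1 1 lay just above control 2. TPM1 held 4.68, 9.56 and 9.28% in NRG1 libraries and 6.75, 7.80 and 8.36% in control libraries, which overlapped.

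The order of the members by level, per kilobase of the longest coding transcript, differed between the groups, for CNN2 near the top and for MYL9 and TAGLN near the bottom. In NRG1 libraries it ran from TAGLN2 with a mean of 344 CPM per kilobase through TPM2 (60.8), CALD1 (47.6), CNN2 (47.3), TPM1 (26.5), ACTA2 (9.42), MYLK (4.68), TAGLN (1.98) and MYL9 (1.95) to CNN1 (0.0419). In control libraries TAGLN2 again led with 340 CPM per kilobase, and CNN2 (72.7), TPM2 (54.4), CALD1 (52.2), TPM1 (28.1), MYL9 (10.9), TAGLN (8.49), ACTA2 (6.61), MYLK (2.55) and CNN1 (0.104) followed. By their means TAGLN and MYL9 thus stood above ACTA2 and MYLK in control libraries and below both in NRG1 libraries. With all exons as the length MYL9 and TAGLN (1.95 and 1.09 CPM per kilobase in NRG1 libraries) came just under MYLK (2.11), and the order of such close neighbours depends on the length used. CALD1 and CNN2 differed in NRG1 libraries by less than the SD of CNN2, and MYL9, TAGLN and ACTA2 differed in control libraries by less than the SD of MYL9. The summed level of the 10 genes, with TAGLN2 as the largest part, was 957 to 1386 CPM in NRG1 libraries and 1054 to 1340 CPM in control libraries.

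Promoter windows were printed for the members in which a motif tied to contractile genes was found. RefSeq windows (GRCh38.p14, 250 bases before to 50 after a start site) were found for 8 of the 10 genes, 15 windows in all, with none for TAGLN and MYL9. The CArG box, the SRF element, was searched as CC, a core of only A and T bases, and GG, a pattern the same on both strands. This strict form was in 2 of those 8 genes, MYLK and CNN2, against 1.6% of genes with a window. It was in 2 of the 15 windows, against 1.29% of 35116 windows. Variants with another base in the core were not searched, so a window without a match may still hold such an element. The MCAT element, read as CATTCC or GGAATG so that both strands are covered, was looked for after the members' values were seen. It was in 3 genes, ACTA2, CALD1 and MYLK, against 16.7% of genes, and in 4 of the 15 windows, against 14% of all windows. A gene with several windows, such as CALD1, has more chances of a match. The 2 motifs share no bases in the stretches shown. Capitals mark the CArG box in MYLK (minus strand, chr3:123620578-123620677, bases -129 to -30 from the start site) and CNN2 (plus strand, chr19:1026484-1026583, bases -124 to -25) and the MCAT element in ACTA2 (minus strand, chr10:88952896-88952991, bases -218 to -123).
MYLK: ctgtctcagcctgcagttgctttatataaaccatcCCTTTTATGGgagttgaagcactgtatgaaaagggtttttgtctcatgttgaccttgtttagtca
CNN2: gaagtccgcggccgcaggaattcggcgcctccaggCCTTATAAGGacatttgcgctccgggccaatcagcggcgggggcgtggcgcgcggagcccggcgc
ACTA2: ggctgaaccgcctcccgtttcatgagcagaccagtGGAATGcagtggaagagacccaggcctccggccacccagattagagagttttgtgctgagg

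The genes with the strict CArG box in these windows, MYLK and CNN2, had log2 fold changes of opposite sign (0.87 and -0.62). The MYLK window lies 263.8 kilobases from the 5′ end of a gene of 274.3 kilobases and 10.5 from its 3′ end, in the part of the gene where the telokin promoter is known to lie. The ACTA2 window shown belongs to a start site 38.56 kilobases from the 5′ end of the gene. A match is a description of these letters and shows no binding.

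Other genes of the contractile apparatus were read from the same edgeR test, in which none of them passed the threshold. Their lists and the marker lists were also chosen with earlier results of these data known. Counts over a list therefore describe it and set it apart from no other genes. In a list of 22 SRF target and actin bundle genes, all tested, 18 had a log2 fold change below 0 and 4 above it, with a median of -0.35. At an unadjusted p under 0.05, 8 of the 22 were lower in NRG1 libraries and 0 higher, against 6.72% of all tested genes lower and 5.08% higher. DESeq2 called 2 of them, PDLIM7 and SMTN, both lower. In the comparison of 2 against 2 libraries edgeR called 10 as lower and 1, LPP, as higher, against 4.79% lower and 5.04% higher over all tested genes, with a median of -0.41.

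PDLIM7, a scaffold protein of actin filaments, had 61.2, 54.4 and 46.7 CPM in NRG1 libraries, against 98.3, 113 and 98.9 CPM in control libraries. These groups lay well apart, with a log2 fold change of -0.93 (SE 0.17, adjusted p = 0.192 by edgeR, 0.000883 by DESeq2, and 0.00558 by edgeR without control 3 and NRG1 1). SMTN, smoothelin, had 26.6, 16.6 and 13.68 CPM in NRG1 libraries, against 46.9, 28.3 and 67.2 CPM in control libraries, with a log2 fold change of -1.33 (SE 0.36, adjusted p = 0.330 by edgeR and 0.0473 by DESeq2). Its groups were separated by the narrow gap between NRG1 1 and control 2. PALLD, the actin-bundling protein palladin, had 79.2, 52.9 and 54.1 CPM in NRG1 libraries, against 87.8, 103 and 168 CPM in control libraries, and ITGA5, a fibronectin receptor chain at the end of such bundles, had 110, 91.8 and 88.6 CPM, against 156, 131 and 178 CPM. Both lay below every control library with NRG1, and their log2 fold changes were -0.95 (SE 0.28, adjusted p = 0.334) and -0.68 (SE 0.17, adjusted p = 0.318) by edgeR. Without control 3 and NRG1 1 the log2 fold changes of SMTN, PALLD and ITGA5 were -1.31, -0.83 and -0.67 in that order, each past the threshold (adjusted p = 0.0209, 0.00891 and 0.0171 by edgeR).

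SRF and its coactivators were measured too. SRF had 64.5, 61.9 and 56.7 CPM in NRG1 libraries and 65.4, 88.3 and 151 CPM in control libraries, with a log2 fold change of -0.74 (SE 0.29, adjusted p = 0.395 by edgeR). All NRG1 libraries were below the controls, though NRG1 1 and control 1 nearly met. Its log2 fold change was -0.37 when control 3 and NRG1 1 were left out. MRTFA had 45.4 to 49.4 CPM in NRG1 libraries and 50.6 to 68.1 CPM in control libraries (log2 fold change -0.25, SE 0.18, adjusted p = 0.596), and MRTFB differed by 0.06. MYOCD, the coactivator of cardiac and smooth muscle, had a count of 0 in all 6 libraries.

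The cytoplasmic actins overlapped between groups. ACTG1 had 921, 582 and 590 CPM in NRG1 libraries and 847, 760 and 3299 CPM in control libraries, so its log2 fold change of -1.23 (SE 0.54, adjusted p = 0.425 by edgeR) rested largely on control 3 and was -0.45 without control 3 and NRG1 1. ACTB had 3764, 1959 and 1827 CPM in NRG1 libraries and 2562, 1990 and 4103 CPM in control libraries (log2 fold change -0.20, SE 0.35, adjusted p = 0.834). Of the tropomyosins, calponins and transgelins outside the member list, TPM4 had 310 to 363 CPM in NRG1 libraries and 367 to 510 CPM in control libraries without overlap (log2 fold change -0.35, SE 0.17, adjusted p = 0.442). TPM3 and CNN3 differed by 0.15 and -0.11 with overlap.

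Of 8 myosin II heavy and light chain genes, MYH14 was higher and MYL12A lower at an unadjusted p under 0.05, which 11.8% of all tested genes reached. MYL12A, a regulatory light chain, had 199, 144 and 144 CPM in NRG1 libraries, against 200, 205 and 281 CPM in control libraries, with NRG1 1 just under control 1 (log2 fold change -0.49, SE 0.20, adjusted p = 0.411 by edgeR). MYH14, a non-muscle heavy chain, had 23.0, 146 and 150 CPM in NRG1 libraries and 31.4, 56.7 and 27.9 CPM in control libraries, so NRG1 2 and 3 were high while NRG1 1 was the lowest of all. Its log2 fold change was 1.47 (SE 0.61, adjusted p = 0.412 by edgeR), and without control 3 and NRG1 1 the adjusted p was 0.00778. MYL6B, an essential light chain, had 39.8 to 43.2 CPM in NRG1 libraries, above the control libraries, of which control 2 was the highest with 34.8 CPM.

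The list of 16 light chain regulators, 15 of them tested, had 12 genes above 0 and 3 below, with a median of 0.19. Over all tested genes 7716 were above 0 and 7705 below. At an unadjusted p under 0.05, 2 regulators were higher and 1 lower, against 5.08% and 6.72% of all tested genes. PPP1CB, the catalytic subunit of myosin phosphatase, which opposes MYLK, had 385, 286 and 300 CPM in NRG1 libraries, against 249, 221 and 231 CPM in control libraries (log2 fold change 0.47, SE 0.16, adjusted p = 0.359 by edgeR). PPP1R14B, a member of the phosphatase inhibitor family, had 133 to 157 CPM in NRG1 libraries, above the 106 to 115 CPM of control libraries (log2 fold change 0.38, SE 0.14, adjusted p = 0.387). DAPK3, another light chain kinase, ran the other way, with 34.7 to 39.7 CPM in NRG1 libraries and 45.7 to 87.9 CPM in control libraries (log2 fold change -0.74, SE 0.27, adjusted p = 0.377). Leaving out control 3 and NRG1 1 gave 0.32 for PPP1CB, 0.28 for PPP1R14B and -0.43 for DAPK3. Genes with opposite known effects on light chain phosphorylation were thus higher together, without passing the test.

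Markers of other cell types that make TAGLN and MYL9 were mostly at low levels, and some were lower in NRG1 libraries, as TAGLN and MYL9 were. The 11 smooth muscle markers summed to 31.4 to 36.5 CPM in NRG1 libraries and 51.4 to 86.8 CPM in control libraries, mostly SMTN and SYNM, the gene of the intermediate filament protein synemin. Of those 11, MYH11, the smooth muscle myosin, had 0.618, 1.59 and 1.63 CPM in NRG1 libraries and 1.45, 0.908 and 1.00 CPM in control libraries, DES (desmin) had at most 2 counts in any library, and CASQ2, PLN and DES stayed under 3 counts throughout. ACTG2, an actin of visceral smooth muscle, had 0 counts in each NRG1 library and 4, 2 and 2 counts in control libraries. The 9 fibroblast markers summed to 22.0 to 29.2 CPM in NRG1 libraries and 45.4 to 70.6 CPM in control libraries, mostly COL1A1 and DCN, and the part of such cells in the TAGLN and MYL9 results was not tested. DCN, the proteoglycan decorin, had 7.29, 2.80 and 4.67 CPM in NRG1 libraries, against 16.4, 14.4 and 12.5 CPM in control libraries (log2 fold change -1.58, SE 0.36, adjusted p = 0.266 by edgeR and 0.0115 by DESeq2), and -2.06 without control 3 and NRG1 1. The 7 pericyte markers summed to more, 170 to 240 CPM in NRG1 libraries and 166 to 216 CPM in control libraries. Most of that sum was NOTCH3 (means of 100 CPM in NRG1 and 99.1 CPM in control libraries) and MCAM (76.4 and 62.9 CPM). ABCC9 and KCNJ8 were at 0 in all libraries, and PDGFRB had expected counts of only 1 to 15 and was not tested. CSPG4 (means of 22.5 and 20.8 CPM) and RGS5 (8.85 and 15.7 CPM) lay between.

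At an unadjusted p under 0.05 the 10 airway basal markers split into 3 higher and 3 lower in NRG1 libraries, against 5.08% and 6.72% of all tested genes, and the 4 with the smallest p were keratins and EPCAM. KRT17 had 1483, 1379 and 1368 CPM in NRG1 libraries, against 2696, 2596 and 3140 CPM in control libraries, with a log2 fold change of -0.995 (adjusted p = 0.166 by edgeR and 2.05e-06 by DESeq2). KRT14 had 348, 87.5 and 93.5 CPM in NRG1 libraries, against 1322, 591 and 965 CPM in control libraries, with a log2 fold change of -2.45 (adjusted p = 0.268 by edgeR and 0.000788 by DESeq2). Both keratins were below every control library with NRG1, as TAGLN and MYL9 were, and the size for KRT14 was close to that of MYL9. KRT15 had 13.4, 80.4 and 79.4 CPM in NRG1 libraries and 16.2, 11.5 and 7.49 CPM in control libraries, with a log2 fold change of 2.30 (adjusted p = 0.328 by edgeR and 0.00773 by DESeq2), and NRG1 1 lay among the controls. EPCAM had 147, 111 and 111 CPM in NRG1 libraries, against 66.7, 80.0 and 88.2 CPM in control libraries. The part of these shifts in the results for TAGLN, MYL9 and MYLK was not tested.

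The genes whose levels followed TAGLN most closely over the 6 libraries, of 10597 with a mean of at least 10 CPM, were NRARP (Pearson r = 0.995), TST (0.992), DMTF1 (0.987), ZMYND19 (0.986) and CBX2 (0.985). In all, 189 genes had r over 0.9, and since the points are 6 libraries in 2 groups, any gene with a wide gap between the groups scores high. All 5 lay lower in every NRG1 library than in every control library, with log2 fold changes of -0.66, -0.61, -0.37, -0.48 and -0.89 in that order, all smaller than that of TAGLN. NRARP had 12.2, 14.6 and 14.5 CPM in NRG1 libraries, against 20.5, 21.7 and 23.5 CPM in control libraries. No other member was among the 5.

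Some of the counts could hold reads of other genes. In GENCODE 29, exons of PCSK7 on the opposite strand cover 11.4% of TAGLN exon bases, those of ACTA2-AS1 and FAS cover 17.3% and 12.8% of ACTA2, and those of TPM1-AS cover 16.1% of TPM1. The library kit does not mark strand, so reads from these stretches cannot be told apart by strand. PCSK7 had 23.0, 50.6 and 49.6 CPM in NRG1 libraries and 41.8, 37.2 and 33.7 CPM in control libraries. Its NRG1 2 and 3 were higher than every control, while those of TAGLN were lower. NRG1 1 was the lowest library for both genes. The part of PCSK7 reads in the TAGLN counts was not tested. FAS had 41.9 to 49.3 CPM in NRG1 libraries and 30.7 to 42.5 CPM in control libraries, and ACTA2-AS1 had expected counts of 3.57 to 7.60 in NRG1 libraries and 6.14 to 8.62 in control libraries. Words of 31 bases shared with other genes made up 31.5% of ACTA2, 25.4% of CNN2, 22.9% of TPM1, 10.3% of TAGLN (PCSK7 alone) and 9.66% of TAGLN2 (the pseudogene TAGLN2P1), and at most 4.31% of each of the other 5 members, so counts of ACTA2, CNN2 and TPM1 depend most on how shared reads were divided. For MYL9 the share was 0.461%.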

How the data were processed

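PolyA RNA of AALE cells was prepared with a TruSeq kit that does not keep strand, per the labels' protocols. The authors deposited expected counts per gene by Ensembl identifier, neither whole nor normalized; per the submitters' processing notes the tools were RSEM 1.3.0, STAR 2.5.3a, MultiQC 0.9 and FastQC 0.11.3, and the build hg19, with no roles stated. Which annotation was used is not given in the sources used. A second table the authors deposited holds log2 values of 14759 genes, equal within 1e-09 to TMM-scaled log2 CPM of the expected counts (prior count 0.25). The design had assumed CPM there, and the log2 table served as an alternative only.

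The quasi-likelihood test of edgeR 4.0.16 (R 4.3.3) compared NRG1 with control libraries on rounded expected counts, with TMM scaling, filterByExpr and no covariate, and p-values were adjusted by Benjamini-Hochberg over 15421 genes (threshold 0.05). The tested genes held at least 99.7% of every library's counts. SE is the log2 fold change divided by the square root of F. Symbols matched 51959 of 57736 identifiers. Exon lengths and overlaps came from GENCODE 29 (GRCh38), matched by identifier, with no coordinates taken from it. DESeq2 1.42.0 (15 undefined adjusted p-values, not called) and limma 3.58.1 gave alternatives. The edgeR step was tested on simulated data, and the DESeq2 and limma steps were not.

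The members and lists were chosen with earlier results of these data known. Named were all members, up to 4 genes of each list with the smallest p, NRG1, and the 5 genes most correlated with TAGLN (log2 CPM, prior count 2). A gene that met this rule is not reported here. Other genes named (SRF coactivators and light chains beyond that rule, MYH11, DES, CASQ2, PLN, ACTG2, LPP, neighbours of members) were chosen after their values were seen.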

Additional observations from a re-analysis of the deposited data

How the results depend on the processing

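Over 18 settings (DESeq2, other scalings and filters, limma, edgeR's older dispersion method, a replicate block, libraries left out), TAGLN, MYL9, MYLK, CNN2, ACTA2, TPM2 and CALD1 kept their direction in all 18; the older dispersion method was chosen after seeing the data. Log2 fold changes ran from -2.22 to -1.83 for TAGLN, past the threshold in 3 settings, from -2.80 to -2.20 for MYL9 (3 settings), from 0.70 to 1.05 for MYLK (2), from -0.98 to -0.33 for CNN2 (1), from 0.24 to 0.92 for ACTA2 (0), from 0.03 to 0.23 for TPM2 (0) and from -0.19 to -0.09 for CALD1 (0). The genes called over the whole table, 1 in the edgeR test, were 209 by DESeq2, 21 without a low-count filter, 2 by limma-trend with either pseudocount, 2 by limma-voom, 2 with a replicate block, 1515 without control 3 and NRG1 1, and 1 to 37 leaving out 1 library, the most without NRG1 1. Members called were 0 in the edgeR test, 3 by DESeq2, 2 without a filter (TAGLN, adjusted p = 0.0374, and MYL9, 0.0467), 4 without control 3 and NRG1 1, 0 leaving out any 1 library and 0 with the replicate block. TAGLN2 turned negative with library totals (-0.025), no filter (-0.0061), limma-trend (-0.0051 and -0.0052), limma-voom (-0.011), the deposited log2 values (-0.0042), the replicate block (-0.0051) and without control 3 and NRG1 1 (-0.42), and ran from -0.31 (without NRG1 1) to 0.26 leaving out 1 library. TPM1 was 0.25 without control 3 and NRG1 1 and ran from -0.19 to 0.089 leaving out 1 library, positive without NRG1 1 or control 3. The log2 ratio of TPM2 to TPM1 differed by -0.22 without control 3 and NRG1 1 and by -0.063 (without NRG1 1) to 0.42 leaving out 1 library, and that of TAGLN to TAGLN2 by -2.47 to -1.63 (p = 0.1 to 0.2, exact). The causes were not tested. Deviations of same-numbered libraries from their group means correlated at 0.02, 0.12 and -0.08. With groups of 3, and control 3 and NRG1 1 apart from the rest, these values cannot settle whether replicate numbers pair the libraries. With the replicate block the adjusted p by edgeR was 0.137 for TAGLN, 0.322 for MYL9 and 0.383 for MYLK. No scaling moved the median log2 fold change of all genes by over 0.1.
The groups of 3 allow no exact p under 0.1. At 3.09 to 7.79 CPM TAGLN and MYL9 rested on 25 to 63 counts in NRG1 libraries, and CNN1 could not be compared at this depth. Libraries, not cultures, are the replicates, and expected counts, as RSEM makes them, divide shared reads among genes by a model. The ratio of CNN1 to CNN2 was not computed, because NRG1 2 had 0 counts of CNN1.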
